A study of Mus musculus with 6 samples.

Results

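The genes described here are 9 members of the JAK and STAT families, namely Stat2, Stat3, Stat4, Stat5a, Stat5b, Stat6, Jak1, Jak2 and Tyk2. They were taken by symbol from a table of 22377 genes, and all 9 were found and were high enough to be tested among 13884 genes. The RNA came from CD45+ CD11b+ F4/80+ tumor-associated macrophages (TAMs) sorted from LLC tumors, per the study's methods, where LLC is a mouse lung carcinoma line implanted under the skin. The 6 libraries comprise 3 labelled wt, from Npm1+/+ mice, and 3 labelled ko and knockdown, from Npm1+/- mice, which are haploinsufficient for the nucleophosmin gene in the whole host and not in macrophages alone. The implanted tumor cells were the same in both groups, the mice were young adults of both sexes per the methods, and the labels do not give the sex of the animal behind a library. The labels instead name tumor tissue as the source and a small RNA protocol, and give no genotype, so that Npm1+/+ and Npm1+/- are the study's terms for the groups. The libraries are separate biological samples per the labels, whereas the study's legend for this comparison counts fewer individual mice than there are libraries in a group. It is thus not settled that each library came from its own mouse, and the p-values here measure the spread between these libraries. The question was which transcripts change in TAMs with reduced Npm1.

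The cytokine receptors that signal through JAK kinases have no kinase of their own and carry these kinases on their cytoplasmic tails. When a cytokine binds, the JAKs phosphorylate the receptor and then the STAT proteins that dock on it, and the paired STATs enter the nucleus and bind DNA. In macrophages, STAT3 is best known for the responses to IL-6 and IL-10, STAT6 for the response to IL-4 and IL-13 that defines M2-type polarization, STAT2 for the response to type I interferon, STAT5A and STAT5B for the response to GM-CSF, and STAT4 for the response to IL-12, mostly studied in T and NK cells. STAT proteins are switched on by phosphorylation, which transcript levels do not measure.

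Short promoter sequences are shown for the members and feedback genes that hold a site read by STAT proteins, since these genes are compared below. The STAT dimer site was searched as TTCNNNGAA, its longer form bound by STAT6 as TTC and GAA with 4 bases between them, and the interferon element bound by STAT2 with IRF9 as GAAA and GAAA with 2 bases between them, on both strands, in RefSeq promoter windows of GRCm38.p6. All 9 members matched a window. The first motif occurred in 0 of the 9 members, the longer form in 1 and the interferon element in 2, while these motifs occurred in 9.55%, 8.01% and 3.99% of all 27025 genes with a window. In the lines that follow, capitals mark the motif, and each run is read along the strand of the gene.

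Stat2, interferon element on the opposite strand, chr10:128270266-128270295, plus strand, 222 bases before the start site: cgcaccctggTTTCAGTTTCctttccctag
Stat2, longer form, chr10:128270278-128270307, plus strand, 210 bases before the start site: tcagtttcctTTCCCTAGAActcacggttc
Stat4, interferon element, chr1:52008133-52008162, plus strand, 97 bases before an internal start site: aatgtcttcaGAAAGTGAAAtttagaacgg
Socs1, interferon element, chr16:10785600-10785629, minus strand, 83 bases before the start site: agacttgccgGAAAGAGAAAccgaaagcgg
Socs3, STAT dimer site, chr11:117969501-117969530, minus strand, 154 bases before the start site: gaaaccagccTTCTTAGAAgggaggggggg
Cish, STAT dimer site, chr9:107296649-107296678, plus strand, at the start site: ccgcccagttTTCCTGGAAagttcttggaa

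The Stat2 runs overlap each other, Socs1 held a further interferon element and Cish a further STAT dimer site within a few bases of those shown. These letters are matches in a sequence and were not tested for binding.

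Npm1 itself was not lower in the libraries labelled ko. Its level was 142, 380.2 and 381 CPM (counts scaled to library totals corrected by the TMM method) in wt replicates 1, 2 and 3 and 441, 499 and 343 in ko replicates 1, 2 and 3, so that the directions given here are those between the libraries as labelled. Total counts ranged from 36550775 to 38147320 per library. Wt replicate 1 stood apart from the rest, at -108 on the first principal component against -4.54 to 52.0 in the other libraries, and the fold changes of the members and of the other genes named are given without it where it moved them by over 1.5 times. Npm1 had a log2 fold change of 0.51, and of 0.16 without wt replicate 1. It was the highest of the 6 libraries in 33% of the genes tested and the lowest in 33.5%. Among the members it was the highest in 6 (Stat2, Stat3, Stat5a, Stat5b, Stat6 and Tyk2) and the lowest in 1 (Jak2).

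On the scale that corrects for gene length and library total (FPKM, as deposited), Stat3, Stat6 and Jak1 were the most abundant members, with means over the 6 libraries of 76.3, 71.3 and 62.0 FPKM. Jak2 followed at 34.3 FPKM, Tyk2 at 20.2, Stat2 at 18.5, Stat4 at 13.4, Stat5b at 10.9 and Stat5a at 7.81. Of the neighbors in this order, Jak1 and Jak2 had ranges that did not overlap, and Jak1 was above Jak2 in 6 of 6 libraries. Stat5b was above Stat5a in 6 of 6 libraries, although their ranges over libraries overlapped. The other neighbors overlapped in range and kept their order in 4 or 5 of the 6 libraries, so that the places of Stat3 and Stat6, or of Tyk2 and Stat2, were not set apart by their spread.

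Across the comparison, the quasi-likelihood test of edgeR, adjusted by the method of Benjamini and Hochberg, called 0 of the 9 members and 0 of all 13884 genes (0%) at an adjusted p under 0.05. DESeq2 called 0 members and 108 genes in all, which is 0.9% of the genes to which it gave an adjusted p. At an unadjusted p under 0.05 in edgeR there were 3 members, of which Stat3 and Stat6 were lower and Stat4 higher in the libraries labelled ko, against 8.31% of all genes lower and 6.9% higher. By estimate, 7 members were lower and 2 higher, where 47.9% of all genes had an estimate below 0. In 5 members the groups shared no range of values. Stat3, Stat6 and Jak1 were lower in each library labelled ko than in each wt library, as were 12.6% of all genes, and Stat4 and Jak2 were higher in each, as were 13.3%. For a single gene, 3 libraries against 3 cannot give an exact permutation p below 0.1.

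**Figure D1:**
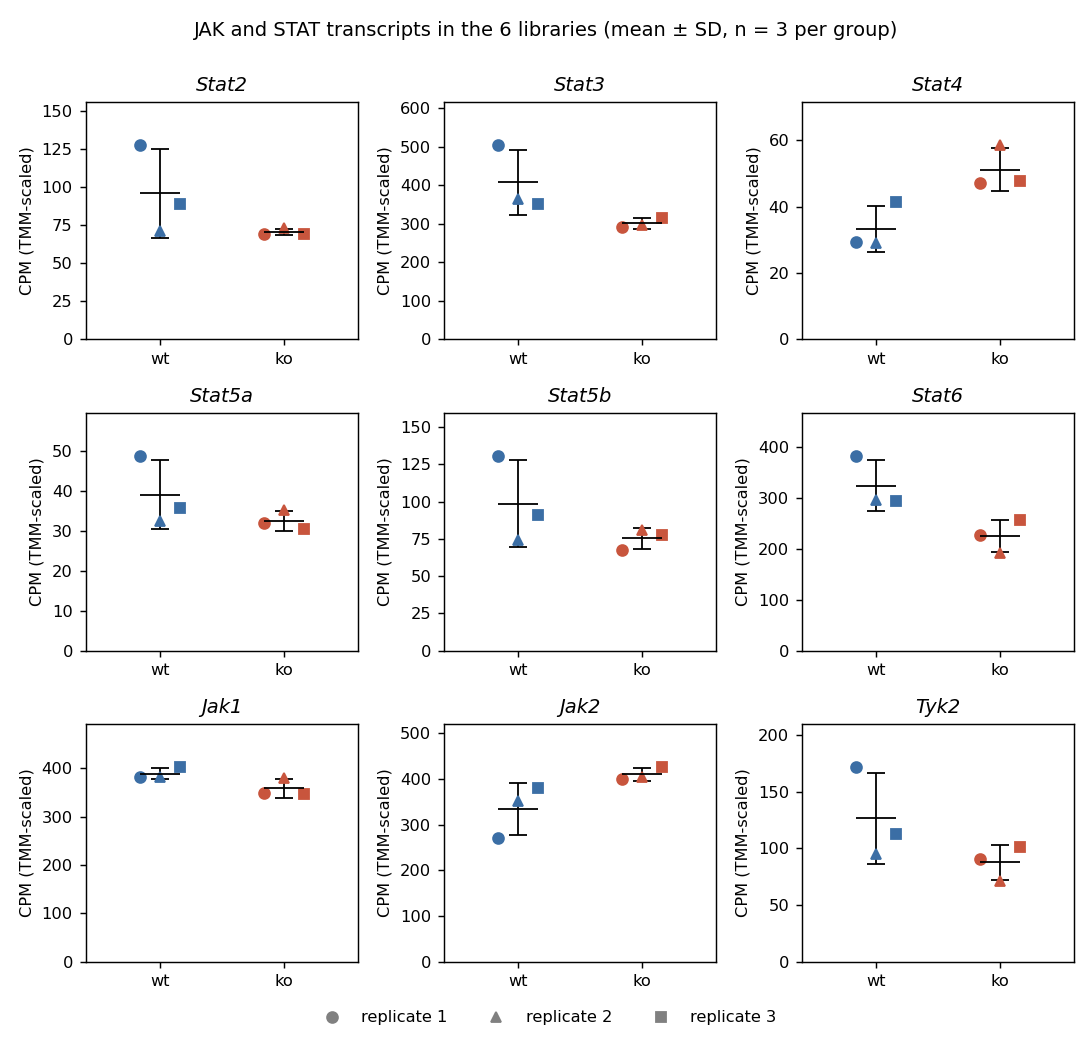
TMM-scaled CPM (vertical axes, from 0) of each of the 9 genes in the libraries labelled wt (blue) and ko (red), with the marker shape giving the replicate number and bars the mean ± SD (n = 3). Wt replicate 1 is the highest point in 6 panels and the lowest in the Jak2 panel, and the groups are apart in Stat3, Stat4, Stat6, Jak1 and Jak2.

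STAT3 carries the signals of IL-6 and IL-10, and its gene had the highest mean FPKM of the members. Stat3 (NCBI Gene 20848, chromosome 11 of GRCm38, 100885098 to 100939540, minus strand) had 505 CPM in wt replicate 1, 366 in replicate 2 and 351 in replicate 3. In the libraries labelled ko it had 290.5 CPM in replicate 1, 296 in replicate 2 and 316 in replicate 3. The libraries labelled ko lay close together and below each wt library, and the gap between the nearest values of the groups was small beside the distance of wt replicate 1 from the other wt libraries. The means were 407 ± 85.2 CPM and 301 ± 13.6 CPM (SD, n = 3 each). This is a log2 fold change (labelled ko minus wt) of -0.44, with a standard error of 0.16, a 95% interval of -0.82 to -0.05 and an adjusted p of 0.328 in edgeR. Without wt replicate 1 it was -0.26, with an adjusted p of 0.432 from edgeR.

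STAT6 drives genes of the M2 type after IL-4. Stat6 (NCBI Gene 20852, chromosome 10, 127642986 to 127660957, plus strand) had 383, 295 and 294 CPM in wt replicates 1, 2 and 3. It had 227, 192 and 256 CPM in ko replicates 1, 2 and 3. Each library labelled ko lay below each wt library, with ko replicate 2 the lowest. With a standard error of 0.16, the log2 fold change came to -0.53 (95% interval -0.91 to -0.14, edgeR adjusted p = 0.328), and it was -0.39 without wt replicate 1. DESeq2 gave an adjusted p of 0.0303 for Stat6 without ko replicate 3 and of 0.0171 without both wt replicate 1 and ko replicate 3, and it did not call Stat6 over the 6 libraries. Stat6 and Nab2, a gene of the opposite strand, overlap by 40 bases at their ends in the GENCODE annotation.

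STAT4 carries the signal of IL-12. Stat4 (NCBI Gene 20849, chromosome 1, 51987148 to 52107189, plus strand) had 29.4, 29.1 and 41.3 CPM in wt replicates 1, 2 and 3. It had 47.1, 58.6 and 47.6 CPM in ko replicates 1, 2 and 3. Each library labelled ko lay above each wt library, and wt replicate 3 came nearest to them. In edgeR this gave a log2 fold change of 0.62, with a standard error of 0.18, a 95% interval of 0.20 to 1.04 and an adjusted p of 0.328, the furthest from 0 of the 9 in this fit, and it was 0.53 without wt replicate 1. DESeq2 without wt replicate 3 gave 0.78 with an adjusted p of 0.00191. T cell markers were also higher by estimate, although their summed level overlapped between the groups, with wt replicate 3 above ko replicates 1 and 3. Their summed level was 42.8, 51.8 and 162 CPM in wt replicates 1, 2 and 3 and 155, 404 and 124 CPM in ko replicates 1, 2 and 3, all 10 had a higher estimate, and Cd3d was at 2.19, 2.51 and 8.96 CPM against 9.31, 20.6 and 9.35. The NK cell markers, of which 9 of 9 had a higher estimate, summed to 71.0 to 130 CPM in wt libraries and 109 to 269 CPM in those labelled ko. Ko replicate 2 was the highest library for Stat4 and for both marker lists, and wt replicate 3 was the highest of the wt libraries for all of them. B cell markers, which summed to 7.16 to 40.5 CPM in wt libraries, were also highest in ko replicate 2, at 62.4 CPM. None of the T or NK cell markers was at 0 in any library, and their part in the level of Stat4 was not tested. A non-coding transcript, Gm28177, overlaps Stat4 on its strand and shares 18.0% of the distinct runs of 100 bases of the Stat4 transcripts. Gm28177 is not among the genes with deposited counts, and its part in the Stat4 count was not tested.

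STAT2 binds IRF9 after type I interferon. Stat2 (NCBI Gene 20847, chromosome 10, 128270559 to 128292849, plus strand) had 128, 70.8 and 88.8 CPM in wt replicates 1, 2 and 3. It had 69.2, 72.9 and 69.2 CPM in ko replicates 1, 2 and 3. The libraries labelled ko were close to each other, and wt replicate 2 fell among them, so the groups overlapped. Their log2 fold change in edgeR was -0.44 with a standard error of 0.21 and an adjusted p of 0.333, and -0.18 without wt replicate 1.

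STAT5A and STAT5B, near-identical proteins of the GM-CSF response, are encoded side by side, with Stat5b on the minus strand and Stat5a on the plus strand of chromosome 11, 8626 bases apart, and with Stat3 next to Stat5a. Stat5a (NCBI Gene 20850, 100859351 to 100885169) had 48.9, 32.6 and 35.7 CPM in wt replicates 1, 2 and 3 and 31.9, 35.4 and 30.5 CPM in ko replicates 1, 2 and 3. Stat5b (NCBI Gene 20851, 100780731 to 100850724) had 131, 74.3 and 90.9 CPM in wt replicates 1, 2 and 3 and 67.2, 81.0 and 77.5 CPM in ko replicates 1, 2 and 3. In both genes wt replicate 1 was the highest library and the other wt libraries fell near those labelled ko. Stat5a had a log2 fold change of -0.26 (standard error 0.18, edgeR adjusted p = 0.421) and Stat5b one of -0.39 (standard error 0.21, edgeR adjusted p = 0.356). Without wt replicate 1 they were -0.07 and -0.14. Of the distinct runs of 100 bases in their GENCODE transcripts, 3.44% of those of Stat5a and 4.79% of those of Stat5b occur in the other gene, and the ends of Stat5a and Stat3 overlap by 72 bases on opposite strands. Whether reads were counted by strand is not given in the sources used here.

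The kinases differed from each other in direction. Jak2, the kinase of the GM-CSF and interferon gamma receptors (NCBI Gene 16452, chromosome 19, 29251828 to 29313080, plus strand), had 271, 352 and 379.8 CPM in wt replicates 1, 2 and 3. It had 401, 405 and 427 CPM in ko replicates 1, 2 and 3. Each library labelled ko lay above each wt library, and wt replicate 1 was far below the others. For Jak2 edgeR gave a log2 fold change of 0.30 with a standard error of 0.15, a 95% interval of -0.05 to 0.65 and an adjusted p of 0.347, and 0.16 without wt replicate 1.

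Jak1, which serves IL-6, IL-10, IL-4 and interferon receptors alike (NCBI Gene 16451, chromosome 4, 101152367 to 101265282, minus strand), varied little over the libraries. It had 383, 381 and 403 CPM in wt replicates 1, 2 and 3 and 349, 379.96 and 346 CPM in ko replicates 1, 2 and 3. Although the groups did not overlap on this scaling, the nearest values were almost equal, and the fitted difference was -0.12 on the log2 scale (standard error 0.11, 95% interval -0.38 to 0.14, edgeR adjusted p = 0.541), turning to 0.04 when libraries were scaled by their totals alone. The distance between the groups was thus within what scaling can move.

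Tyk2, the kinase of the type I interferon, IL-10 and IL-12 receptors (NCBI Gene 54721, chromosome 9, 21104068 to 21131243, minus strand), had 172, 95.02 and 113 CPM in wt replicates 1, 2 and 3. It had 90.3, 70.8 and 101 CPM in ko replicates 1, 2 and 3. The groups overlapped between wt replicate 2 and ko replicate 3. Tyk2 had a log2 fold change of -0.53, with a standard error of 0.24, a 95% interval of -1.09 to 0.03 and an edgeR adjusted p of 0.331, and -0.25 without wt replicate 1. An antisense transcript, 1700084C06Rik, covers most of Tyk2 and shares 6.21% of its distinct runs of 100 bases.

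**Figure D2:**
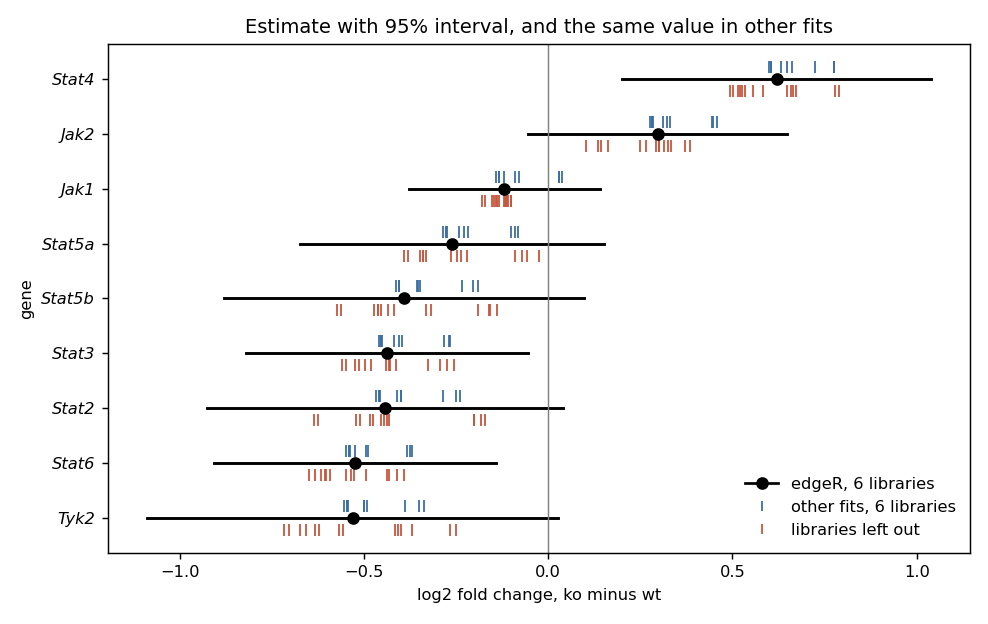
log2 fold change (libraries labelled ko minus wt, horizontal axis) of each gene, with the edgeR estimate over 6 libraries as a black point and its 95% interval as a line, other fits to 6 libraries as blue ticks and fits that leave out libraries as red ticks. The intervals of Stat3, Stat4 and Stat6 lie to one side of 0, from -0.82 to -0.05, from 0.20 to 1.04 and from -0.91 to -0.14 before adjustment, and only Jak1 has ticks on both sides of 0 among the 9 genes and these fits.

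Within a library, the balance of the family can be read without scaling between libraries. Of the summed FPKM of the 6 STAT genes, Stat3 made up 39.0% ± 1.65 in wt libraries and 37.8% ± 0.529 in those labelled ko, and Stat6 37.8% ± 1.30 and 34.2% ± 3.52 (SD, n = 3 each). The shares of both overlapped between the groups. The share of Stat4 was 3.33%, 4.57% and 6.27% in wt replicates 1, 2 and 3 and 8.72%, 10.9% and 8.12% in ko replicates 1, 2 and 3, with no overlap. Among the 6 STAT genes only the share of Stat4 separated the groups, as its CPM did, and the shares of Stat2, Stat5a and Stat5b overlapped. By CPM, 13.3% of all genes were higher without overlap. Of the summed FPKM of the 3 kinases, Jak2 made up 20.5%, 28.4% and 28.3% in wt libraries and 32.8%, 32.7% and 33.7% in those labelled ko. The log2 ratio of Jak2 to Jak1 was -1.09 ± 0.23 in wt libraries and -0.66 ± 0.10 in those labelled ko (SD, n = 3 each), and was higher in each library labelled ko, with a two-sided exact permutation p of 0.1, the smallest this design allows. The log2 ratio of Stat3 to Stat6 was 0.05 ± 0.07 and 0.15 ± 0.17, with overlap and an exact permutation p of 0.5, and that of Stat5b to Stat5a was 0.52 ± 0.12 and 0.41 ± 0.14, with overlap and an exact permutation p of 0.4. These 3 ratios were the ones compared, and none can pass an adjustment in this design.

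**Figure D3:**
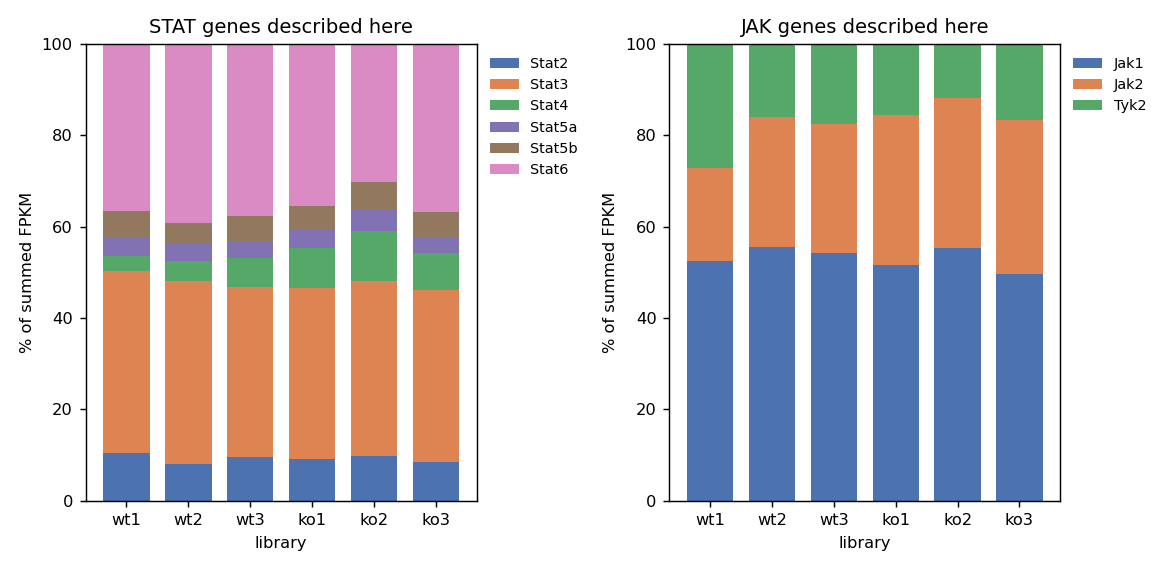
Share of the summed FPKM (vertical axes, percent, from 0 to 100) taken by each of the 6 STAT genes (left) and the 3 kinases (right) in each of the 6 libraries, as stacked bars. The Stat4 band runs from 3.33% to 6.27% in wt libraries and from 8.12% to 10.9% in those labelled ko, and the Jak2 band from 20.5% to 28.4% and from 32.7% to 33.7%.

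Macrophage markers were also lower in the libraries labelled ko. The 12 markers, among them the sorting markers Itgam (CD11b) and Adgre1 (F4/80), were all detected. All 12 had a lower estimate, with a median log2 fold change of -0.54, and 8 were lower without overlap, against 12.6% of all genes. Adgre1, Ptprc (at -0.09), Lyz2 and Mertk overlapped between the groups. The 12 markers summed to 16505 to 22019 CPM in wt libraries and 9852 to 16339 CPM in those labelled ko. Most of this sum was Lyz2, at 9354 to 14144 CPM in wt libraries and 5667 to 9698 CPM in those labelled ko. In bulk RNA, fewer macrophages in a library and less of a transcript per macrophage cannot be told apart. Relative to the mean log2 CPM of these markers in the same library, Stat6 was at -0.23, -0.47 and -0.46 in wt replicates 1, 2 and 3 and at -0.35, -0.28 and -0.54 in ko replicates 1, 2 and 3, a difference in means of -0.0061. Stat3 differed by 0.10 and Tyk2 by 0.02 on this scale, and the groups overlapped in all 3. Stat4 differed by 1.14 and Jak2 by 0.83, and in both each library labelled ko lay above each wt library. On this scale the median of all genes tested moved to 0.54. Of the members, 2 were higher without overlap against 41.3% of all genes, and 0 were lower without overlap against 0.497%. Neutrophil markers, which include Csf3r, were lower too, with 1889 to 2095 CPM in wt libraries and 836 to 1607 CPM in those labelled ko, and 7 of 7 tested had a lower estimate. Fibroblast markers summed to 24.0, 478 and 276 CPM in wt replicates 1, 2 and 3 and to 345 to 688 CPM in the libraries labelled ko. The summed levels of the T cell, NK cell, fibroblast, B cell, dendritic cell, endothelial and epithelial or carcinoma lists overlapped between the groups. The part of these cell types in the values of the members was not tested.

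**Figure D4:**
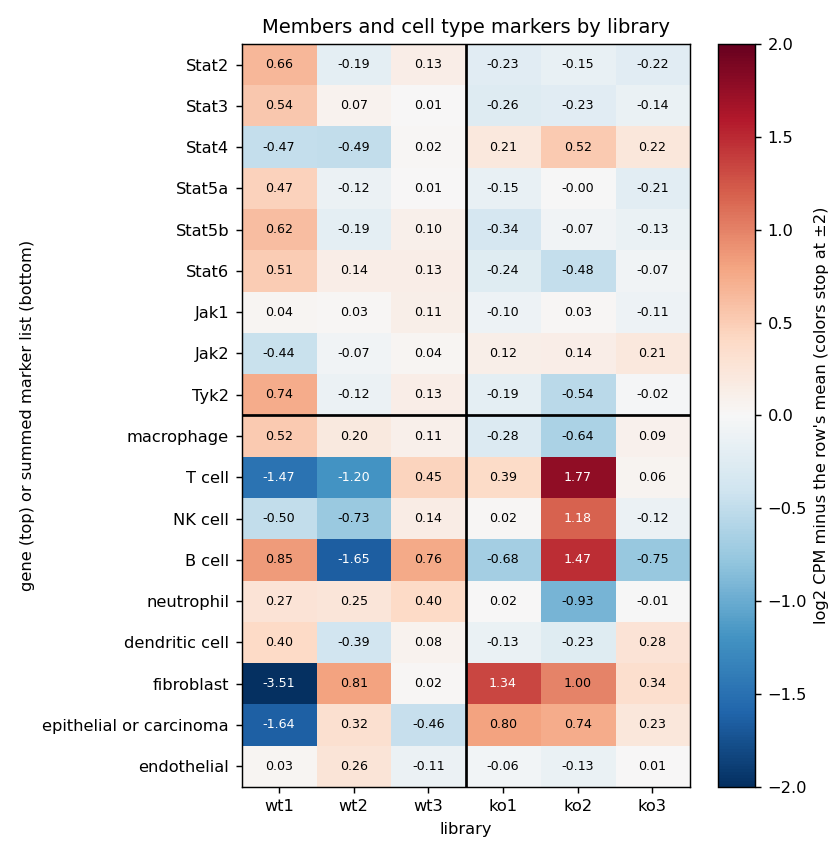
log2 CPM of each of the 9 genes (top) and of the summed CPM of each marker list (bottom) minus the mean of its row over the 6 libraries, with color and number giving the same value and colors stopping at ±2. Stat2, Stat3, Stat5a, Stat5b, Stat6 and Tyk2 are highest in wt replicate 1, as are the macrophage and dendritic cell lists. Stat4 and the T, NK and B cell lists are highest in ko replicate 2.

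The other genes of the pathway were grouped as ligands, receptor chains, negative regulators and known targets of single STATs. None of them passed edgeR's test, and the smallest adjusted p in each list was 0.328, equal to the smallest over all genes. Some lists share genes, namely Usp18, Socs2, Socs3, Cish, Il4ra, Il2ra, Il10, Osm, Ifng, Pim1, Il12rb1 and Il12rb2. The counts and medians of such lists are therefore not separate. For reference, 52.1% of all genes had an estimate above 0 (65.8% with libraries scaled by their totals alone and 66.1% in limma on FPKM with a pseudocount of 1), and the median log2 fold change of all genes was 0.02. The 9 members had a median of -0.39, which was -0.14 without wt replicate 1. Beside the counts of genes whose groups did not overlap stand 13.3% of all genes higher and 12.6% lower. The lists were chosen with earlier results of these data known, so these counts describe the lists and do not test them. The 12 macrophage markers had a median of -0.54, with 8 lower without overlap. With libraries scaled by their totals alone, the median of all genes was 0.17, and the medians of the lists moved up with it, to -0.23 in the members, -0.12 in the ligands, -0.080 in the receptor chains and -0.041 in the negative regulators. On that scaling the median was -0.19 in the STAT2 targets, -0.25 in the STAT3 targets, 0.15 in the STAT5 targets, 0.022 in the STAT6 targets and 1.16 in the genes acting with STAT4. Medians are given for the genes of each list that were tested.

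Of the ligands, 17 of 22 could be tested, with 7 higher, 10 lower and a median of -0.27. The sign of this median rested on single libraries, since it was 0.23 without wt replicate 2, -0.049 without ko replicate 2, and -0.42 without wt replicate 1 or without ko replicate 1. Lif, a ligand of the IL-6 family that signals through STAT3, had 101, 214 and 200.4 CPM in wt replicates 1, 2 and 3 and 99.3, 81.8 and 154 CPM in ko replicates 1, 2 and 3, with overlap. Osm, another such ligand and a STAT5 target, had 562 to 866 CPM in wt libraries and 275 to 574 CPM in those labelled ko, with a log2 fold change of -0.77. Ebi3, a subunit of IL-27, had 18.5 to 26.6 CPM in wt libraries and 12.5 to 16.3 CPM in those labelled ko, without overlap. Il6 (log2 fold change -0.27) and Il10 (-0.44) varied widely among the wt libraries, Il6 from 107 to 352 CPM and Il10 from 114 to 402 CPM, with standard errors of 0.44 and 0.41, and both estimates turned above 0 without wt replicate 2 (0.12 and 0.23). Without wt replicate 1 they were -0.62 and -0.77, and Il6 was at -0.049 without ko replicate 2 and -0.63 without ko replicate 3. Ifng, the T and NK cell cytokine, was at 1.04 to 4.41 CPM in wt libraries and 3.58 to 19.2 CPM in those labelled ko. Csf2, which encodes GM-CSF, was at 0.197 to 0.451 CPM in wt libraries and 0.684 to 1.07 CPM in those labelled ko, and its counts ran from 7 to 42 per library.

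Of the receptor chains, 28 of 29 could be tested, with 10 higher, 18 lower and a median of -0.22, and 8 were lower and 1 higher without overlap, where all genes gave 12.6% and 13.3%. The median was -0.12 without ko replicate 2 and -0.36 without ko replicate 3. Chains of the GM-CSF and IL-3 family were among the lower ones. Csf2rb, the shared signalling chain, had 750 to 1099 CPM in wt libraries and 478 to 631 CPM in those labelled ko, with a log2 fold change of -0.68 (standard error 0.19), and Csf2rb2, its paralog, had -0.44. How reads that fit both paralogs were counted is not given in the sources used here. Il10rb, which pairs with Tyk2, had 128 to 143 CPM in wt libraries and 83.8 to 107 CPM in those labelled ko, with a log2 fold change of -0.52. Il4ra, the chain that recruits STAT6, had 701, 522 and 486 CPM in wt replicates 1, 2 and 3 and 396, 356 and 481 CPM in ko replicates 1, 2 and 3, without overlap but with wt replicate 3 and ko replicate 3 nearly equal. Its log2 fold change of -0.47 was -0.30 without wt replicate 1. The shared chain of the IL-6 family, Il6st, was at -0.23, Il10ra at -0.36 and Ifnar1 at -0.21, and all 3 overlapped between the groups. Without wt replicate 1, Il6st was at -0.046 and Il10ra at -0.18. Il6st was at -0.38 without wt replicate 2 and -0.36 without ko replicate 3, and Ifnar1 at -0.10 without ko replicate 2 and -0.37 without ko replicate 3. Csf3r, the G-CSF receptor of granulocytes, was at -0.83, and is also one of the neutrophil markers above.

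Of the negative regulators, all 19 could be tested, with 6 higher, 13 lower and a median of -0.19, and 2 were higher and 7 lower without overlap, where all genes gave 13.3% and 12.6%. The median was -0.10 without wt replicate 1. Socs3, which blocks signalling from IL-6 receptors and holds a STAT dimer site in the promoter shown above, had 1543, 1720 and 1274 CPM in wt replicates 1, 2 and 3 and 1134, 816 and 1460 CPM in ko replicates 1, 2 and 3, with overlap. Cish, a STAT5 target, had a log2 fold change of -0.29 and also overlapped, and it was at -0.097 without wt replicate 1 and -0.45 without wt replicate 3. Socs1, which blocks interferon signalling, had the opposite sign, at 0.53 (standard error 0.23), with 10.4 to 16.3 CPM in wt libraries and 15.4 to 24.0 CPM in those labelled ko, and was at 0.33 without ko replicate 2. The phosphatases Ptpn6 (SHP-1), at -0.94, and Ptpn1 (PTP1B), at -0.63, were lower without overlap, Ptpn1 at -0.37 without wt replicate 1, and Cbl, a ubiquitin ligase, was at -0.43 with overlap. Usp18, which holds back the type I interferon receptor, was at 27.2, 18.5 and 24.0 CPM in wt replicates 1, 2 and 3 and 13.3, 11.7 and 14.2 CPM in ko replicates 1, 2 and 3, with a log2 fold change of -0.83 (standard error 0.18).

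Of the targets of STAT2 with IRF9, 16 were tested, with 1 higher, 15 lower and a median of -0.34. Without overlap, 7 were lower, against 12.6% of all genes. The list was chosen with earlier results known, and the activity of STAT2 was not tested. Irf9, the partner of STAT2, had a log2 fold change of -0.26 and overlapped between the groups, and it was at -0.063 without wt replicate 1 and -0.39 without wt replicate 3. Irf7, which amplifies the interferon response, had 178, 136 and 127 CPM in wt replicates 1, 2 and 3 and 107, 86.9 and 94.6 CPM in ko replicates 1, 2 and 3. The antiviral synthetases Oas2 (-0.79), Oas3 (-0.94) and Oasl2 (-0.65) were lower without overlap, while Rsad2, Isg15 and Ifit1 overlapped.

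Of the STAT3 targets, all 18 could be tested, with 2 higher, 16 lower and a median of -0.38. Without overlap, 8 were lower, against 12.6% of all genes. This list too was chosen with earlier results known. The macrophage markers were also lower, with a median of -0.54, and the activity of STAT3 was not tested. Cebpb, a factor of the myeloid lineage, had 1772, 1168 and 1098 CPM in wt replicates 1, 2 and 3 and 774, 529 and 989 CPM in ko replicates 1, 2 and 3, with a log2 fold change of -0.82 (standard error 0.28). Bcl3, a regulator of NF-kB, was at -0.67, Vegfa, the angiogenic factor, at -0.53 and Bcl6, a repressor, at -0.31, all 3 without overlap. Ccrl2, an atypical chemokine receptor gene that the study follows, is not on the list. It had 831, 1494 and 1162 CPM in wt replicates 1, 2 and 3 and 665, 471 and 783 CPM in ko replicates 1, 2 and 3. The groups did not overlap, and the log2 fold change was -0.86, with a standard error of 0.26 and an adjusted p of 0.328 in edgeR.

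Of the STAT5 targets, all 9 could be tested, with 5 higher, 4 lower and a median of 0.0022, which was -0.21 without wt replicate 2 and -0.090 without ko replicate 3. Bcl2, a survival gene, had 13.4 to 23.7 CPM in wt libraries and 24.9 to 47.3 CPM in those labelled ko, and Il2ra, a chain of the IL-2 receptor, 3.89 to 9.73 and 10.3 to 15.0 CPM. Both are also genes of T cells. Id1, by contrast, had a log2 fold change of -0.58 and was lower without overlap.

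Of the STAT6 targets, all 16 could be tested, with 6 higher, 10 lower and a median of -0.11. This median changed sign, to 0.015, without wt replicate 1, and was -0.20 without wt replicate 2 and -0.31 without ko replicate 3. Arg1 (-0.17) and Mrc1 (-0.28), which encode arginase 1 and CD206, overlapped between the groups, with 718 to 931 CPM and 649 to 933 CPM for Arg1. Over the fits that left out 1 library, Arg1 ran from -0.35 without ko replicate 3 to -0.076 without ko replicate 2, with -0.29 without wt replicate 1 and -0.11 without wt replicate 2. Mrc1 ran from -0.60 without ko replicate 3 to -0.11 without ko replicate 2, with -0.14 without wt replicate 3. Chil3, a chitinase-like protein, had a log2 fold change of -0.83 with overlap, and of -0.52 without wt replicate 1. The genes of this program that stood the other way without overlap were Irf4 (0.69), Egr2 (0.42) and Ccl24 (0.42), with Egr2 at 66.8 to 91.2 CPM in wt libraries and 92.0 to 120.1 CPM in those labelled ko. Irf4 was at 0.33 without ko replicate 2, the library with the most T and NK cell marker RNA. Without ko replicate 3, Egr2 was at 0.27 and Ccl24 at 0.24. The list thus held members on both sides, none past the test.

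Of the genes that act with STAT4 in T and NK cells, all 8 could be tested, with 7 higher, 1 lower and a median of 0.98, and 2 were higher and 1 lower without overlap, where all genes gave 13.3% and 12.6%. The median was 0.34 without ko replicate 2, the library with the most T and NK cell marker RNA. Il18rap, a chain of the IL-18 receptor, had 37.7 to 66.7 CPM in wt libraries and 82.6 to 93.9 CPM in those labelled ko. Tbx21, the factor of type 1 T cells, was at 1.04 to 1.77 CPM in wt libraries and at 3.26, 8.86 and 1.81 CPM in ko replicates 1, 2 and 3. Hlx had a log2 fold change of -0.54. It was highest in wt replicate 1 (69.6 CPM) and lowest in ko replicate 2 (32.3 CPM), where the T and NK cell marker lists were highest. Eomes of this list is also an NK cell marker.

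**Figure D5:**
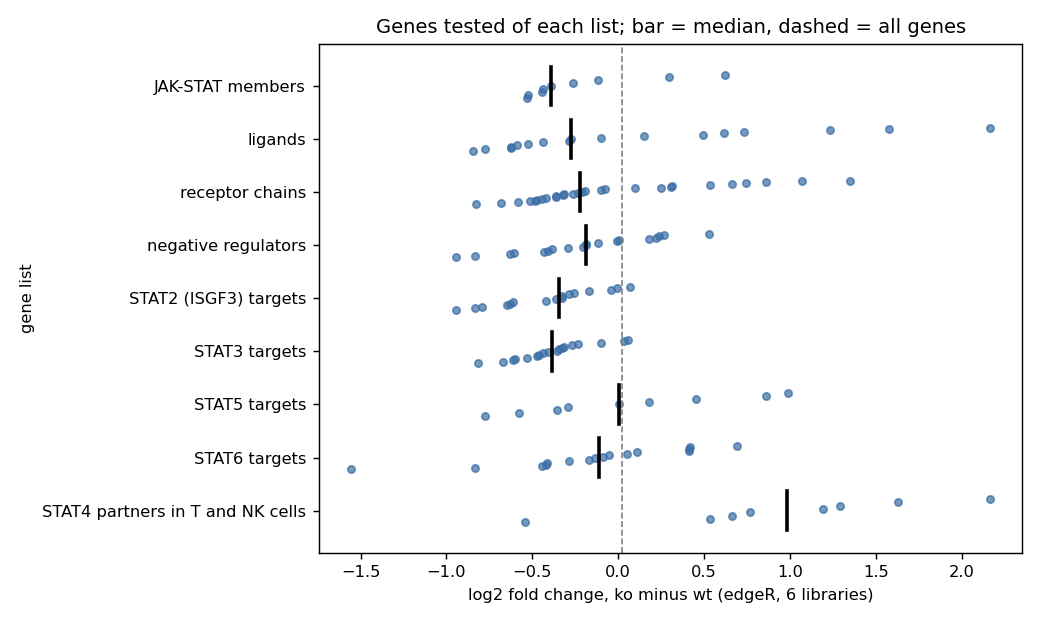
log2 fold change (libraries labelled ko minus wt, edgeR over 6 libraries, horizontal axis) of each tested gene of 9 lists, with a bar at the list's median and a dashed line at the median of all genes, 0.02. The medians run from -0.39 in the 9 JAK and STAT genes and -0.38 in the STAT3 targets to 0.98 in the genes acting with STAT4, although the first is -0.14 without wt replicate 1 and the last 0.34 without ko replicate 2, and no point passed the adjusted threshold.

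The genes whose pattern over the 6 libraries was most like each member were found by the root mean square difference of log2 CPM, each gene centered on its own mean, among 8091 other genes with a mean of at least 10 CPM. For Stat3 they included Zswim8 (0.024) and Brms1 (0.026). For Stat6 they were Mroh1, Cds1 and Gpsm3 (0.022 to 0.023). Tyk2 lay nearest to Il6ra (0.032), followed by Csk and Tep1, and Jak2 nearest to Ssr3 (0.035), Dnajc21 and Pcnp. Stat4 lay nearest to Nt5e (0.046), Chd2 and Ptar1, and Jak1 to Senp5 (0.030), Abhd13 and Prmt2. Stat2 lay nearest to Arhgap25 (0.032), Tpra1 and Taok2, Stat5b to Arhgef1 (0.037), Tpra1 and Irf8, and Stat5a to Brd1 (0.037), Slc49a3 and Ppp1r37. Among the members themselves, Stat2 and Stat5b were the closest pair (0.072), with Stat5b in place 17 among all genes for Stat2, whereas Stat4 and Tyk2 were the most distant pair (0.70). These measures describe the 6 libraries, of which wt replicate 1 stands apart.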

How the data were processed

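The members and gene lists were chosen with earlier results of these data known. The table the authors deposited holds raw gene counts and, beside them, FPKM. In all 15063 genes checked, the FPKM could be recomputed from count, gene length and library total within 1%. The build is mm10 per the labels, and the aligner and counting tool are not given in the sources used here. Counts were fitted in edgeR 4.0.16 (R 4.3.3) over 6 libraries with filterByExpr, TMM factors and the quasi-likelihood test, adjusting p-values over 13884 genes (Benjamini-Hochberg), and the fit was tested on simulated data. Standard errors are estimates over the root of F. Exact permutation tests used SciPy 1.17.1. Alternatives used DESeq2 1.42.0 and limma 3.58.1, other scalings and filters, and libraries left out. DESeq2 on every gene with a count was added after the data were seen. A count of 0 allows up to 3 counts, or 0.0716 to 0.0846 CPM. This limit covers counting error only. Coordinates are those of GENCODE M21 on GRCm38, matched by symbol. Named were all members and, from each list, the 4 genes of smallest unadjusted p in this fit, with Socs1, Socs3, Cish, Il6, Lif, Il10, Il6st, Il4ra, Il10ra, Ifnar1, Irf9, Irf7, Arg1, Mrc1, Npm1 and Ccrl2. Rsad2, Isg15 and Ifit1 were named after their values were seen. The sources used here do not say whether the replicate numbers pair the libraries, and the main fit treated them as unpaired. The likeness rule names 1 further gene, which is not reported here.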

Additional observations from a re-analysis of the deposited data

How the results depend on the processing

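No member was called in any edgeR or limma fit, and 0 genes in all. DESeq2 called 108 genes on the genes tested and 36 on every gene with a count, against 0 in edgeR, and 0 members in both. Across fits that left out libraries, the number of members called ranged from 0 to 1 and the number of all genes from 0 to 1333, all values above 0 from DESeq2 (81, 368 and 648 without wt replicates 1, 2 and 3, and 2, 14 and 769 without ko replicates 1, 2 and 3). In these fits Stat4 ranged from 0.49 to 0.79 and Stat6 from -0.65 to -0.39. Stat4 was called without wt replicate 3 (0.78), and Stat6 without ko replicate 3 (-0.65) and without wt replicate 1 and ko replicate 3 (-0.53). Leaving out wt replicate 1 moved the edgeR estimates of Stat2, Stat3, Stat5a, Stat5b, Tyk2 and Jak2 by more than 1.5 times. The Jak1 log2 fold change turned to 0.0368 when scaled by library totals only, to 0.0294 in limma with a pseudocount of 1 on FPKM, and to 0.0297 with 0.1, where the median of all genes moved from 0.02 to 0.17, 0.09 and 0.16. The cause was not tested. The other 8 members kept their direction in all 24 alternatives. Among edgeR fits with libraries left out, Il6 ranged from -0.98 to 0.12 and Il10 from -0.80 to 0.23. With DESeq2 included, the lowest values were -1.01 and -0.84. The 3 ratios moved by less than 1 SD in each alternative. Correlations of same-numbered deviations were -0.24, 0.06 and -0.34, and a replicate block called 0 members and 0 genes, with 1606 genes at an unadjusted p under 0.05 against 2112 without it, and Stat3 at -0.42.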

Other observations

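The ligands that switch on STAT6, Il4 and Il13, were too low to be tested. Il4 had 0 to 2 counts and Il13 0 to 7 counts per library. Il12b, the shared subunit of IL-12 and IL-23, had 6.19 to 9.41 CPM in wt libraries and 9.49 to 13.7 CPM in those labelled ko, without overlap and with a log2 fold change of 0.61. Ifnb1, which encodes interferon beta, had 9.22, 28.1 and 16.1 CPM in wt replicates 1, 2 and 3 and 27.1, 32.6 and 28.8 CPM in ko replicates 1, 2 and 3, with overlap. These genes were named after their values were seen.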
